A study of Caenorhabditis elegans with 10 samples.

Results

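The 10 genes described here serve sensory cilia and the ion channels that work in them: *osm-3* (WBGene00003884), *osm-5* (WBGene00003886), *osm-6* (WBGene00003887), *daf-10* (WBGene00000906), *daf-19* (WBGene00000914), *tub-1* (WBGene00006655), *osm-9* (WBGene00003889), *ocr-2* (WBGene00003839), *tax-4* (WBGene00006526) and *tax-2* (WBGene00006525). They were chosen by identifier and function, by a rule that uses no measured value but was made with earlier results of these data known, and are 10 of the 18451 rows of the deposited table. Each row holds 1 value per gene and array, so isoforms of a gene were not told apart. All 10 were measured on all 10 arrays, with 0 missing values.

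RNA came from *Caenorhabditis elegans* larvae of the L2/L3 stages on Affymetrix tiling arrays, 1 array per sample. The groups were PVD/OLL neurons of *mec-3(e1338)* mutants (3 arrays) and of wild type, strain N2 (3 arrays), and whole animals of *mec-3(e1338)* (2 arrays) and of N2 (2 arrays), numbered in the titles as biological replicates. In both PVD/OLL groups the RNA was recovered by mRNA tagging: PAB-1, a protein that binds poly(A) tails, was expressed with a FLAG epitope in PVD and OLL from the *ser-2*prom3B promoter, and the bound messages were immunoprecipitated, whereas whole-animal RNA was total RNA with no immunoprecipitation. PVD and OLL were thus collected together, and every sample was amplified with the same kits. MEC-3 is a transcription factor of the LIM homeodomain class, and the series asked which genes it regulates in PVD.

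OLL is a ciliated sensory neuron of the head, and PVD is a nociceptor of the body wall with a branched dendrite and no cilium. Cilia are built by intraflagellar transport, in which kinesin motors carry trains of the A and B protein complexes to the tip and dynein brings them back. The RFX transcription factor DAF-19 switches on many of the genes for this machinery through a promoter motif, the X-box. In amphid neurons of the head, TRPV channels and cyclic-nucleotide-gated channels in the cilia turn chemical, osmotic and thermal stimuli into electrical signals.

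Arrays of a group correlated across all rows at 0.982 to 0.984 in *mec-3* PVD/OLL, 0.961 to 0.977 in wild-type PVD/OLL, 0.974 in *mec-3* whole animals and 0.952 in wild-type whole animals, the widest spread being that of the wild-type whole-animal pair. Values are log2 after RMA, the authors' summary of the probes of each gene. Without detection calls, it is unknown whether the lowest values lie above background. Rows other than the 10 have no names in the sources used here. The level of *mec-3*, markers of PVD and OLL, markers of other tissues and the further genes of the ciliary pathways were for that reason not analysed here, and the purity of the tagged RNA was not measured.

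The 10 genes lay at different places in the range of the arrays. *osm-6* was brighter than 84.6% of rows by its mean over the arrays, *daf-19* than 64.3% and *osm-5* than 56.9%, and these 3 were above the median row. *osm-3*, *osm-9* and *tub-1* lay below the median and above the dimmest 25% of rows. *ocr-2*, *tax-2*, *daf-10* and *tax-4* lay among the dimmest 25%, brighter than 17.5% to 23.2% of rows. These positions describe signal on the array, not transcript number, since probes of different genes respond differently. *osm-5* had the widest range over the 10 arrays, 2.02 log2 units, and *daf-10* the narrowest, 0.45.

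**Figure D1:**
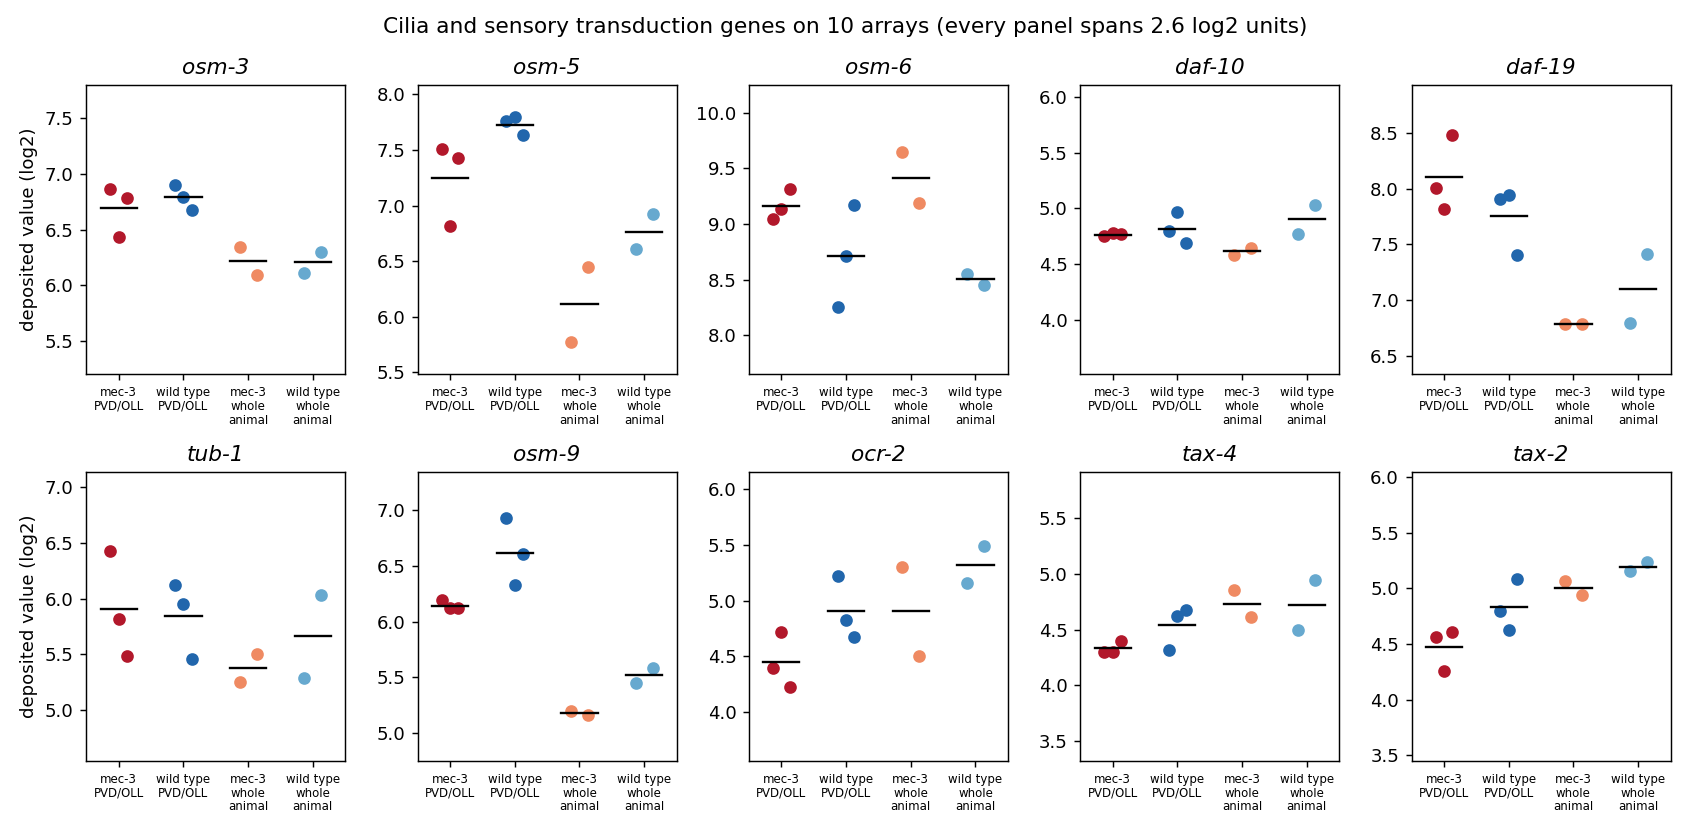
Deposited log2 value of each of the 10 genes (vertical axis, each panel on its own level but with the same span) in the 4 groups (horizontal axis). Points are arrays in replicate order and black lines are group means. Within each genotype *osm-3*, *osm-5* and *osm-9* lie higher on every PVD/OLL array than on the whole-animal arrays of that genotype, while *tax-2* lies lower. Of all rows, 19.9% in *mec-3* and 18.6% in wild type lie higher in this way, and 43.6% and 32.9% lower.

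PVD/OLL was set against whole animals to ask which messages the tagged neurons hold in excess. In *mec-3*, 3 of the 10 genes were higher in PVD/OLL (*daf-19*, *osm-5* and *osm-9*), 0 were lower and 7 did not pass (limma on all 10 arrays, Benjamini-Hochberg adjusted p under 0.05 over all rows). Of all rows, 26.7% passed in either direction, 7.59% as higher and 19.1% as lower. Of the 3 calls in *mec-3*, 0 held without *mec-3* whole-animal replicate 1 and 1, *osm-5*, without replicate 2. In wild type, 2 of the 10 were higher (*osm-9* and *osm-5*), 0 were lower and 8 did not pass, where 28.6% of all rows passed, 9.61% as higher and 18.9% as lower. Both genotypes called 4.76% of all rows higher, and *osm-5* and *osm-9* were among these. The median difference of the 10 genes was 0.31 (log2) in *mec-3*, where that of all rows was -0.28, and 0.19 in wild type, where it was -0.21. Fewer cells of a type and less RNA per cell cannot be told apart in bulk RNA, and neither can cell type and preparation, since only the PVD/OLL samples were immunoprecipitated.

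**Figure D2:**
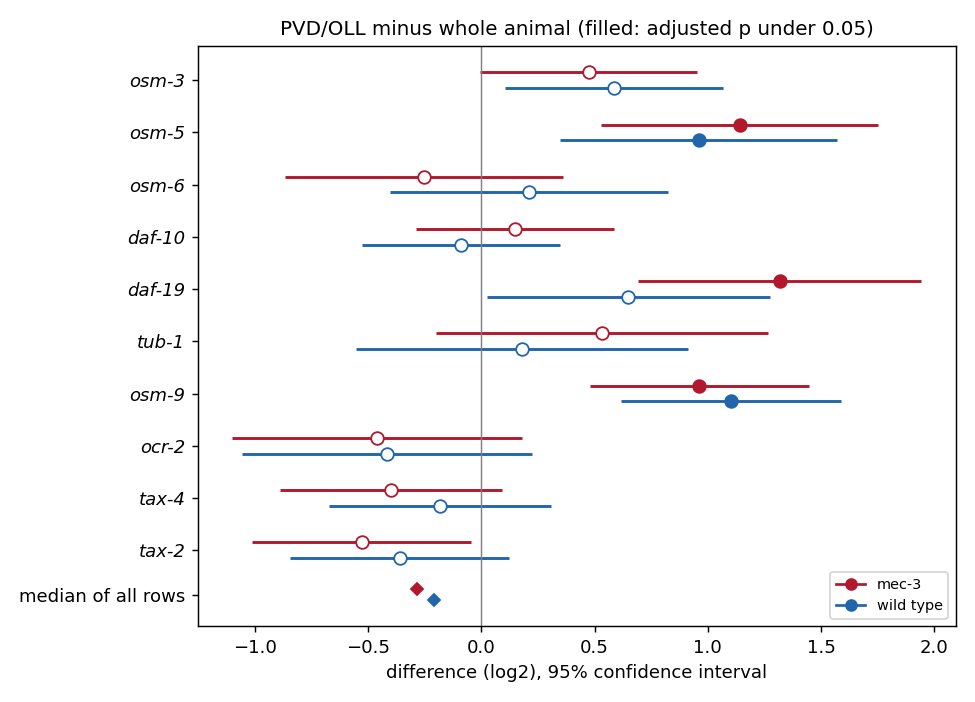
Difference between PVD/OLL and whole animals (log2, horizontal axis) for each gene, in *mec-3* above wild type, with the 95% confidence interval as a line and filled points where adjusted p is under 0.05. Diamonds give the median of all rows, -0.28 in *mec-3* and -0.21 in wild type. The filled points, *daf-19* in *mec-3* and *osm-5* and *osm-9* in both genotypes, lie between 0.96 and 1.32.

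*osm-5* encodes a subunit of the intraflagellar transport B complex, without which cilia are stunted. It measured 7.51, 6.82 and 7.42 in *mec-3* PVD/OLL against 5.78 and 6.45 in *mec-3* whole animals, which is 2.20-fold higher (log2 difference 1.14, SE 0.28, limma adjusted p = 0.0146). The wild-type values were 7.76, 7.79 and 7.63 in PVD/OLL against 6.61 and 6.92 in whole animals, which is 1.95-fold higher (0.96, SE 0.28, limma adjusted p = 0.0268). The PVD/OLL and whole-animal arrays did not overlap in either genotype. The size rested in part on single arrays: in *mec-3* it was 0.80 without whole-animal replicate 1 (limma adjusted p = 0.131) and 1.48 without replicate 2 (limma adjusted p = 0.0265), and the call was also lost, at 1.01 and 1.05, without PVD/OLL replicates 1 and 3. The wild-type difference ranged from 0.80 to 1.12 over the arrays left out in turn, and its call was lost without PVD/OLL replicates 1 or 2 or either whole-animal array (limma adjusted p = 0.0603 to 0.115).

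*osm-3* encodes the homodimeric kinesin that drives transport along the outer part of the cilium. It measured 6.86, 6.43 and 6.79 in *mec-3* PVD/OLL against 6.35 and 6.09 in *mec-3* whole animals, a log2 difference of 0.47 (SE 0.22, limma adjusted p = 0.125). Wild-type arrays gave 6.90, 6.80 and 6.67 in PVD/OLL against 6.11 and 6.30 in whole animals, a difference of 0.59 (SE 0.22, limma adjusted p = 0.0651). Every PVD/OLL array lay above every whole-animal array of its genotype, as it did in 19.9% of all rows in *mec-3* and 18.6% in wild type, but neither difference passed. In wild type it passed after quantile normalization (0.79, limma adjusted p = 0.0168) and after centring each array on its median (0.67, limma adjusted p = 0.0402). It did not pass with only the 5 wild-type arrays in the fit (limma adjusted p = 0.157) or with array weights (limma adjusted p = 0.124). Nor did it with a replicate block or with a robust prior and intensity trend (limma adjusted p = 0.0991 and 0.0793).

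The other transport genes did not pass. *osm-6*, which encodes another B-complex subunit, measured 9.04, 9.13 and 9.32 in *mec-3* PVD/OLL against 9.65 and 9.19 in *mec-3* whole animals, a difference of -0.25 (95% confidence interval -0.87 to 0.36, limma adjusted p = 0.517). In wild type it measured 8.25, 8.71 and 9.18 in PVD/OLL against 8.55 and 8.45 in whole animals, a difference of 0.21 (-0.40 to 0.82, limma adjusted p = 0.592). The groups overlapped in both genotypes, and the 3 wild-type PVD/OLL arrays spread over more of the scale than the whole-animal pair did.

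*daf-10* encodes a subunit of the A complex. It measured 4.75, 4.78 and 4.77 in *mec-3* PVD/OLL against 4.58 and 4.65 in *mec-3* whole animals, a difference of 0.15 (-0.29 to 0.59, limma adjusted p = 0.596). The wild-type values were 4.80, 4.97 and 4.69 in PVD/OLL against 4.77 and 5.04 in whole animals, a difference of -0.087 (-0.52 to 0.35, limma adjusted p = 0.765). The *mec-3* groups did not overlap and the wild-type groups did, and all 10 values fell within 0.45 log2 units. In the RefSeq annotation of WBcel235 the neuropeptide gene *flp-1* lies inside the span of *daf-10*, and *osm-3* and *osm-6* each share an end with a neighbouring protein-coding gene, K09B3.1 and R31.2. How probes in the shared stretches were assigned is not given in the sources used here.

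*daf-19*, the gene of the RFX factor, had the largest enrichment of the 10 genes in *mec-3*. It measured 8.01, 7.82 and 8.48 in *mec-3* PVD/OLL against 6.78 and 6.79 in *mec-3* whole animals, which is 2.49-fold higher (log2 difference 1.32, SE 0.28, limma adjusted p = 0.00885). The smallest PVD/OLL value stood over 1 log2 unit above both whole-animal values. Wild-type arrays gave 7.91, 7.94 and 7.40 in PVD/OLL against 6.79 and 7.42 in whole animals, a difference of 0.65 (SE 0.28, limma adjusted p = 0.106), with PVD/OLL replicate 3 at the level of whole-animal replicate 2. That difference was 0.33 without whole-animal replicate 1 and 0.96 without replicate 2, and it passed in neither case. The 2 enrichments were not shown to differ (difference of differences 0.67, SE 0.40, limma adjusted p = 0.652). The *mec-3* difference was 1.32 without either *mec-3* whole-animal array, but the call was then lost (limma adjusted p = 0.0535 and 0.0533). *daf-19* makes a short isoform in ciliated neurons and longer ones in other neurons, and this row does not tell them apart.

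*tub-1* encodes the worm Tubby protein, which is found in cilia and affects fat storage. It measured 6.43, 5.81 and 5.48 in *mec-3* PVD/OLL against 5.25 and 5.50 in *mec-3* whole animals, a difference of 0.53 (-0.20 to 1.27, limma adjusted p = 0.249). In wild type it measured 6.12, 5.95 and 5.46 in PVD/OLL against 5.29 and 6.04 in whole animals, a difference of 0.18 (-0.55 to 0.91, limma adjusted p = 0.710). The groups overlapped in both genotypes. The standard error of *tub-1*, 0.33, was the highest of the 10 genes.

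*osm-9* encodes a TRPV channel subunit needed for the avoidance of high osmolarity and for some odour responses. It measured 6.19, 6.12 and 6.12 in *mec-3* PVD/OLL against 5.20 and 5.16 in *mec-3* whole animals, which is 1.95-fold higher (log2 difference 0.96, SE 0.22, limma adjusted p = 0.0114). The wild-type values were 6.93, 6.32 and 6.60 in PVD/OLL against 5.45 and 5.58 in whole animals, which is 2.15-fold higher (1.10, SE 0.22, limma adjusted p = 0.00576). Arrays of the 2 kinds did not overlap in either genotype, and the wild-type difference was above that of 95.1% of rows. In wild type the difference was 0.95 to 1.25 with each of the 10 arrays left out, though leaving out a *mec-3* array cannot change it. The wild-type call held without any 1 of the wild-type PVD/OLL arrays. It also held with only the 5 wild-type arrays in the fit (limma adjusted p = 0.0420). The *mec-3* difference ranged from 0.94 to 0.98, and its call was lost without whole-animal replicate 1 or 2 (limma adjusted p = 0.0585 and 0.0644).

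*ocr-2* encodes a TRPV subunit that works with OSM-9 in several amphid neurons, where each helps the other reach the cilium. It measured 4.40, 4.72 and 4.22 in *mec-3* PVD/OLL against 5.30 and 4.50 in *mec-3* whole animals, a difference of -0.46 (-1.10 to 0.18, limma adjusted p = 0.256), which was -0.057 without whole-animal replicate 1 and -0.86 without replicate 2. Wild-type arrays gave 5.22, 4.83 and 4.67 in PVD/OLL against 5.16 and 5.49 in whole animals, a difference of -0.42 (-1.06 to 0.22, limma adjusted p = 0.297). The groups overlapped in both genotypes. After quantile normalization both differences were 0.026, on the other side of 0.

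*tax-4* and *tax-2* encode the alpha and beta subunits of a channel opened by cyclic GMP that serves smell, taste and the sensing of temperature. *tax-4* measured 4.30, 4.30 and 4.40 in *mec-3* PVD/OLL against 4.85 and 4.61 in *mec-3* whole animals, a difference of -0.40 (-0.89 to 0.090, limma adjusted p = 0.197). In wild type it measured 4.32, 4.62 and 4.68 in PVD/OLL against 4.50 and 4.94 in whole animals, a difference of -0.18 (-0.67 to 0.31, limma adjusted p = 0.558). The groups did not overlap in *mec-3* and did in wild type.

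*tax-2* measured 4.56, 4.26 and 4.61 in *mec-3* PVD/OLL against 5.07 and 4.94 in *mec-3* whole animals, a difference of -0.53 (-1.01 to -0.043, limma adjusted p = 0.0963). The wild-type values were 4.80, 4.62 and 5.08 in PVD/OLL against 5.15 and 5.24 in whole animals, a difference of -0.36 (-0.84 to 0.12, limma adjusted p = 0.234). All PVD/OLL values of *tax-2* lay below the whole-animal values of their genotype, as in 43.6% of all rows in *mec-3* and 32.9% in wild type. Dim rows as a class were lower in PVD/OLL: the dimmest 25% of rows, which hold *tax-2*, *tax-4*, *ocr-2* and *daf-10*, had a median of -0.52 in *mec-3* and -0.50 in wild type, and 11.2% and 14.5% of them were positive. Within these dim rows, *tax-2* lay above 48.96% of the *mec-3* differences and 61.6% of the wild-type ones, *ocr-2* above 55.1% and 56.5%, *tax-4* above 60.5% and 75.3%, and *daf-10* above 93.5% and 81.2%. After quantile normalization *tax-2* and *tax-4* were at -0.016 and 0.12 in *mec-3* and at 0.11 and 0.31 in wild type.

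Mutants were set against wild type to ask whether the mutation goes with a change in these genes. In PVD/OLL, 0 of the 10 genes passed (limma on the 6 PVD/OLL arrays, adjusted p under 0.05), and 1, *osm-9*, had an unadjusted p under 0.05. Of all rows, 6.13% passed in that comparison and 21.1% had an unadjusted p under 0.05. In whole animals 0 of the 10 passed (limma on the 4 whole-animal arrays), and 1, *osm-6*, had an unadjusted p under 0.05, where 5.54% of all rows passed and 21.5% had an unadjusted p under 0.05. The median difference of the 10 genes was -0.15 (log2) in PVD/OLL, where that of all rows was -0.067, and -0.29 in whole animals, where it was -0.032. Dim rows as a class were lower in *mec-3*, and 7 of the 10 genes were not above the median row. The dimmest 25% of rows had a median of -0.15 in PVD/OLL and -0.13 in whole animals. For the brightest 25% these medians were 0.097 and 0.27. Both counts of genes that passed stayed at 0 with each array left out and under every other setting tried.

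**Figure D3:**
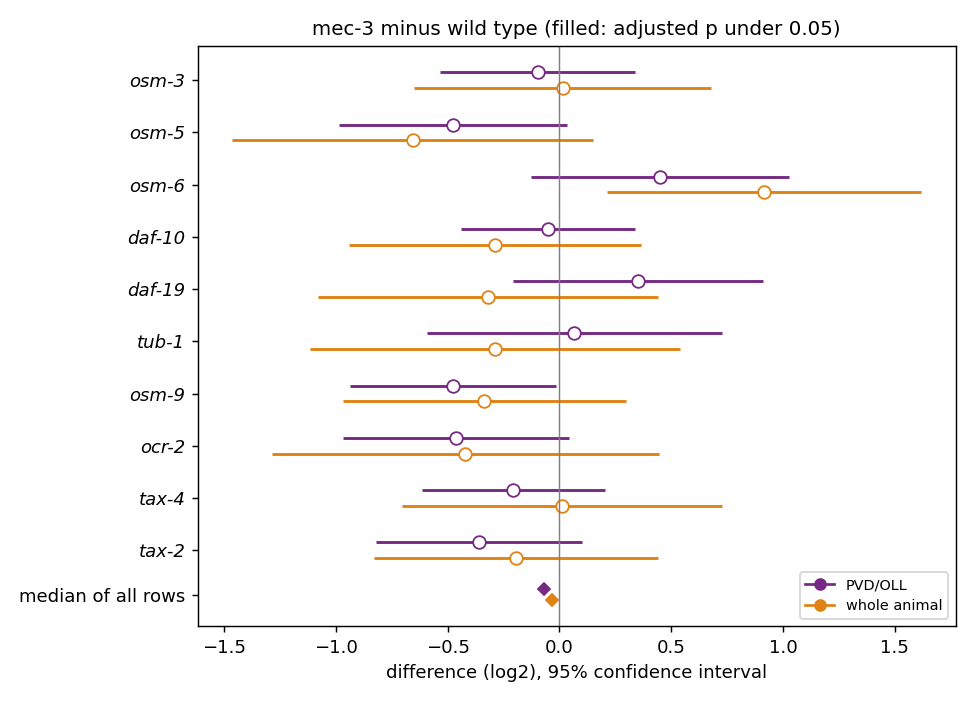
Difference between *mec-3* and wild type (log2, horizontal axis) for each gene, in PVD/OLL above whole animals, with the 95% confidence interval as a line. No point is filled, since no adjusted p is under 0.05, and the diamonds give the median of all rows, -0.067 in PVD/OLL and -0.032 in whole animals. The differences run from -0.66 (*osm-5*) to 0.91 (*osm-6*), both in whole animals.

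The PVD/OLL arrays of 3 genes did not overlap between genotypes, *osm-5*, *osm-9* and *tax-2*, and all 3 were lower in *mec-3*, as were 13.9% of all rows. *osm-9* had the lowest p of the 10 there, with 6.14 ± 0.042 in *mec-3* and 6.62 ± 0.30 in wild type (log2, SD, n = 3 each), a difference of -0.48 (95% confidence interval -0.94 to -0.014, limma adjusted p = 0.223). *osm-5* averaged 7.25 ± 0.38 in *mec-3* against 7.73 ± 0.084 in wild type, a difference of -0.48 (-0.99 to 0.036, limma adjusted p = 0.272). *mec-3* replicate 2 was the lowest *osm-5* value in PVD/OLL, and without it the difference was -0.26.

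The other PVD/OLL differences were smaller or more variable. *tax-2* averaged 4.48 ± 0.19 in *mec-3* against 4.84 ± 0.23 in wild type, a difference of -0.36 (-0.82 to 0.10, limma adjusted p = 0.357), and *tax-4* differed by -0.21 (-0.62 to 0.21, limma adjusted p = 0.575). *ocr-2* averaged 4.45 ± 0.25 in *mec-3* against 4.91 ± 0.28 in wild type, a difference of -0.46 (-0.97 to 0.045, limma adjusted p = 0.280). The positive differences were those of *osm-6*, 0.45 (-0.13 to 1.03, limma adjusted p = 0.357), *daf-19*, 0.35 (-0.21 to 0.91, limma adjusted p = 0.473), and *tub-1*, 0.067 (-0.59 to 0.73, limma adjusted p = 0.923). *osm-3*, at -0.097 (-0.53 to 0.34), and *daf-10*, at -0.051 (-0.44 to 0.34), had the smallest negative ones (limma adjusted p = 0.819 and 0.899). The confidence intervals of 9 genes lay within 1 log2 unit of 0 on both sides, and that of *osm-6* reached 1.03.

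In whole animals *osm-6* differed most. It measured 9.65 and 9.19 in *mec-3* against 8.55 and 8.45 in wild type, which is 1.88-fold higher without passing (log2 difference 0.91, SE 0.29, limma adjusted p = 0.136, and 0.0745 to 0.190 under the other settings with all arrays). The groups did not overlap. Without *mec-3* replicate 1, the higher of the pair, the difference was 0.69 (limma adjusted p = 0.530).

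*osm-5* measured 5.78 and 6.45 in *mec-3* whole animals against 6.61 and 6.92 in wild type, a difference of -0.66 (95% confidence interval -1.46 to 0.15, limma adjusted p = 0.330), which was -0.99 and -0.32 without *mec-3* replicates 2 and 1. *osm-9* differed by -0.34 (-0.97 to 0.30), *ocr-2* by -0.42 (-1.29 to 0.44, and -0.82 to -0.020 with each array left out), *daf-19* by -0.32 (-1.08 to 0.44), *daf-10* by -0.29 (-0.94 to 0.37), *tub-1* by -0.29 (-1.11 to 0.54) and *tax-2* by -0.19 (-0.83 to 0.44). *osm-3* and *tax-4* were at 0.014 and 0.011, with intervals of -0.65 to 0.68 and -0.70 to 0.73. Of the 10 genes 6 had groups that did not overlap, 1 higher and 5 lower in *mec-3*, beside 50.5% of all rows, 25.2% higher and 25.4% lower. With 2 arrays a genotype the intervals were wide, and those of 5 genes reached beyond 1 log2 unit.

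A difference of differences tested whether the 2 kinds of sample differed in their genotype effect. Of the 10 genes 0 passed (limma on all 10 arrays), where 0.00542% of all rows did, and 0 had an unadjusted p under 0.05, where 9.80% of all rows did. The values ran from -0.46 for *osm-6* to 0.67 for *daf-19*. The genotype differences of *daf-19* were 0.35 in PVD/OLL and -0.32 in whole animals. With each array left out the PVD/OLL difference ranged from 0.16 to 0.49 and the whole-animal one from -0.63 to -0.0047. Its genotypes overlapped in PVD/OLL, and in whole animals the higher *mec-3* value and the lower wild-type value were both 6.79.

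Genes whose products work together were set against each other on the same array, which removes any scaling shared by both. The 3 pairs, 2 subunits each of the B complex, the TRPV channel and the cyclic-nucleotide-gated channel, were taken with their values known. Neither the p-values of these pairs nor their adjustment accounts for that choice, so they describe these arrays and are not independent support. For each pair the log2 difference between the genes was compared between PVD/OLL and whole animals within genotype, and between *mec-3* and wild type within kind of sample, by two-sided exact permutation tests within those strata, with 6 tests in all. None of the 6 passed after adjustment with all arrays. The smallest p that the permutations can give is 0.01 for the first comparison and 0.00833 for the second, so 1 test at that p with no other near it is adjusted to 0.06 or 0.05 and could not pass alone. Without wild-type PVD/OLL replicate 3, 3 of the 6 passed, each at an adjusted p of 0.0333 (exact permutation). These were *osm-9* minus *ocr-2* between the kinds of sample, at 1.42, and *osm-6* minus *osm-5* in both comparisons, at -1.21 and 1.39. Leaving out arrays was added here after seeing the data, so these passes are not taken as support. With each of the other 9 arrays left out, 0 passed.

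*osm-9* minus *ocr-2* was 1.70 ± 0.26 in *mec-3* PVD/OLL (SD, n = 3) and 0.28 ± 0.54 in *mec-3* whole animals (n = 2). It was 1.71 ± 0.22 in wild-type PVD/OLL (n = 3) and 0.19 ± 0.15 in wild-type whole animals (n = 2). All 6 PVD/OLL arrays lay at 1.40 or above and all 4 whole-animal arrays at 0.66 or below. The shift between the kinds of sample was 1.47 on average, with an exact permutation p = 0.01, the smallest possible, and 0.06 after adjustment over the 6 tests. Between genotypes the same difference moved by 0.036 (exact permutation p = 0.883).

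*osm-6* minus *osm-5* was 1.91 ± 0.39 in *mec-3* PVD/OLL (SD, n = 3) and 3.31 ± 0.80 in *mec-3* whole animals (n = 2). It was 0.99 ± 0.53 in wild-type PVD/OLL (n = 3) and 1.74 ± 0.29 in wild-type whole animals (n = 2). PVD/OLL lay below whole animals by 1.07 on average (exact permutation p = 0.03, adjusted 0.0667), and *mec-3* lay above wild type by 1.25 (exact permutation p = 0.0333, adjusted 0.0667), by 0.93 in PVD/OLL and 1.57 in whole animals. The 2 genes of the B complex had opposite signs of the genotype difference in both kinds of sample, but none of these differences passed. *tax-4* minus *tax-2* was steadier, shifting by 0.15 between kinds of sample and by 0.18 between genotypes (exact permutation p = 0.25 and 0.2).

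**Figure D4:**
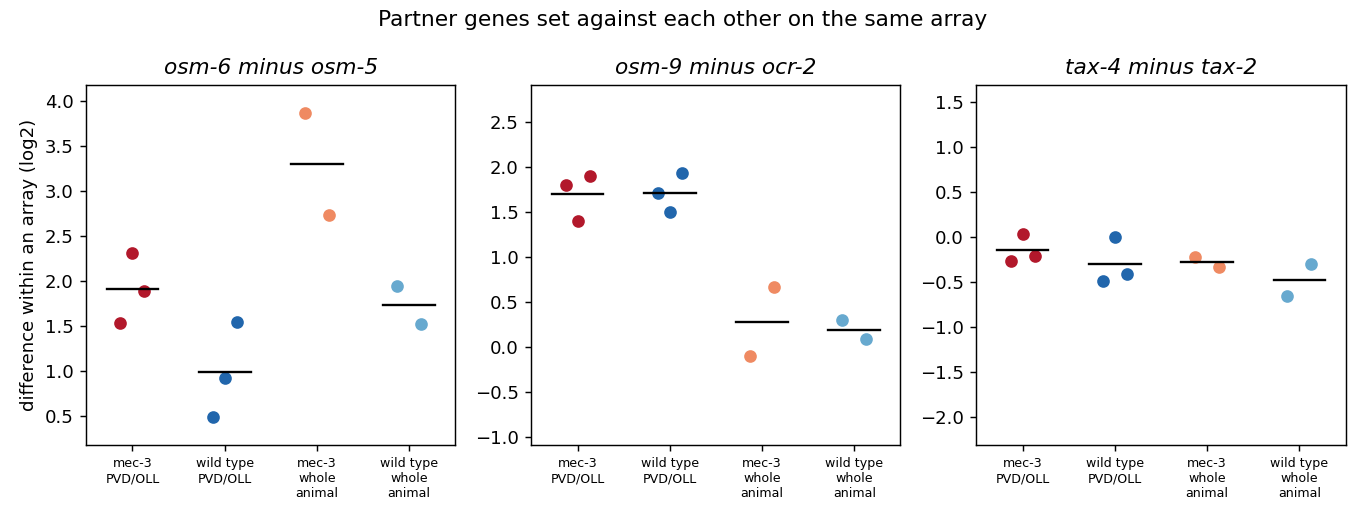
Log2 difference between 2 partner genes on the same array (vertical axis, with the same span in each panel) in the 4 groups. Points are arrays and black lines are group means. *osm-9* minus *ocr-2* is at 1.40 to 1.93 on PVD/OLL arrays and at -0.11 to 0.66 on whole-animal arrays, and *tax-4* minus *tax-2* stays between -0.65 and 0.04 throughout.

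Likeness of pattern was measured as the root-mean-square difference between profiles over the 10 arrays, each centred on its own mean. Among the 10 genes the most alike were *tax-2* and *tax-4*, at 0.20 log2 units, each being the nearest of the 10 to the other. Profiles that vary little lie close by this measure, whatever their pattern. The SD over the 10 arrays was 0.32 for *tax-2* and 0.23 for *tax-4*, against 0.67 for *osm-5*. *daf-10*, with an SD of 0.14, also lay close to *tax-4*, at 0.24. *osm-5* and *osm-9* were likewise nearest to each other, at 0.29. *osm-5* and *osm-6* were the least alike, at 0.90. No gene had another of the 10 as its nearest row in the whole table: among all rows ordered by likeness to *osm-5*, *osm-9* had rank 67, and among those ordered by likeness to *tax-2*, *tax-4* had rank 425. The other way round, *osm-5* had rank 286 in likeness to *osm-9*, and *tax-2* rank 614 in likeness to *tax-4*. The arrays share group and preparation, so these distances describe the 10 arrays and carry no test.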

How the data were processed

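The deposited table holds log2 values that the authors made with RMA, per the submitters' processing notes, with no version named. The log2 scale was inferred from the span of the values (2.26 to 15.4). The sources used here do not give gene models, genome build, probe assignment or filters. Array medians lay between 6.51 and 6.77. The number of arrays limits the precision.

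Groups came from the sample titles. Differences between groups were fitted in limma 3.58.1 (lmFit, eBayes; R 4.3.3) on all 18451 rows, unfiltered. Tests were two-sided, and p-values were adjusted over all rows by the Benjamini-Hochberg method. *mec-3* was compared with wild type within the 6 PVD/OLL arrays and within the 4 whole-animal arrays. PVD/OLL was compared with whole animals, and the difference of differences taken, in a fit that gave each group of the 10 arrays its own mean. The fits were tested on simulated data. The rule for named genes was to name all 10. The genes and lists were chosen with earlier results of these data known.

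The identifiers were named by the list that defines the 10 genes. The RefSeq gene table (WBcel235) holds all 10 symbols but 0 of the 18451 identifiers, so 19 lists of further ciliary, sensory and cell type genes were not tested. Its overlaps between genes were used, and no position, since the build of the table is unknown. Replicate numbers are shared between groups, but same-numbered arrays did not deviate together (correlations -0.06 to 0.19 over 13 pairs, 1 above 0.1), so they were not taken as pairs. Columns without a sample numbered 0.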

Additional observations from a re-analysis of the deposited data

How the results depend on the processing

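Alternatives were quantile normalization, median centring, removal of the dimmest 50% of rows, array weights, a replicate block, a robust prior with an intensity trend, an adjusted p under 0.10, other arrays in the fit and each array left out. Of 755 differences of the 10 genes under these settings, 704 kept direction and side of the threshold. Many of them could not change direction. The robust prior, the threshold of 0.10, removal of dim rows and other arrays in the fit leave a difference as it was. In PVD/OLL against whole animals, leaving out an array of the other genotype does so too. The count is for that reason no measure of robustness. *osm-9* and *osm-5* kept their direction in PVD/OLL against whole animals under every setting in which they were tested. In wild type the 2 genes higher in PVD/OLL became 1, *osm-9*, with array weights and with the replicate block (*osm-5*: limma adjusted p = 0.0679 and 0.0573), and 1, *osm-5*, with the dimmest 50% left out, where 3 of the 10 remained in the test and *osm-9* did not. With each array left out the count was 0 to 3 in *mec-3* and 1 to 2 in wild type. It was 0 without *mec-3* whole-animal replicate 1 and 1 (*osm-5*) without replicate 2. The replicate block changed no other call. Scaling moved the median of all rows in PVD/OLL against whole animals in *mec-3*, -0.28, to 0.015 (quantile normalization) and -0.16 (median centring), and that in wild type, -0.21, to 0.033 and -0.12.

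Direction changed for uncalled genes. Quantile normalization gave 0.39 for *daf-10*, 0.31 for *tax-4*, 0.11 for *tax-2* and 0.026 for *ocr-2* in wild-type PVD/OLL against whole animals, 0.12 for *tax-4* and 0.026 for *ocr-2* in *mec-3*, 0.15 for *daf-10* in *mec-3* against wild-type PVD/OLL, 0.00036 for *ocr-2* in the difference of differences and -0.0084 for *osm-9* minus *ocr-2* between genotypes. Median centring gave 0.043 for *daf-10* between genotypes in PVD/OLL and 0.00082 in wild-type PVD/OLL against whole animals, and array weights gave -0.032 for *tub-1* between genotypes in PVD/OLL. With each array left out, *mec-3* against wild type in PVD/OLL ranged over -0.12 to 0.024 for *daf-10*, -0.18 to 0.033 for *osm-3* and -0.19 to 0.28 for *tub-1*. In whole animals it ranged over -0.11 to 0.14 for *osm-3*, -0.21 to 0.23 for *tax-4* and -0.66 to 0.087 for *tub-1*. PVD/OLL against whole animals in wild type ranged over -0.22 to 0.044 for *daf-10*, -0.021 to 0.44 for *osm-6*, -0.40 to 0.038 for *tax-4* and -0.19 to 0.55 for *tub-1*. The difference of differences ranged over -0.44 to 0.36 for *ocr-2*, -0.24 to 0.019 for *osm-3*, -0.16 to 0.52 for *osm-5*, -0.29 to 0.015 for *osm-9*, -0.44 to 0.0040 for *tax-4* and -0.020 to 0.73 for *tub-1*. *osm-9* minus *ocr-2* between genotypes ranged from -0.16 to 0.23. The cause was not tested. Quantile normalization and leaving out arrays were added for the partner differences after seeing the data. The search for X-boxes in promoters, with its looser settings, was not run, since no sequence was used here.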
